A study of Mus musculus with 46 samples.

Results

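The livers described here came from male mice in which Plvap had been deleted in hepatic stellate cells, and from their littermate controls, all fed chow and fasted for 12 h. They make up 11 of the 46 bulk liver RNA-seq samples of the study, 5 from knockouts and 6 from controls. Their labels define the groups and place them in a count table of their own. The comparison was chosen with earlier results of these data known. The knockout livers carry the label Plvap Knockout and came from a line made of a Plvap allele, Plvaptm1.1Salm, and the transgene Tg(Lrat-cre)1Rshw, in which the promoter of Lrat drives Cre recombinase; Lrat encodes lecithin retinol acyltransferase, an enzyme of stellate cells. The littermate control livers carry the label Plvap Control, with the same strain names, sex, diet and fast. Whether the controls carried Cre or the unrecombined Plvap allele, and how old the mice were, is not stated in the labels used here. The tissue was snap-frozen whole liver, so the RNA is that of all liver cells together, and fewer cells of a type and less RNA per cell cannot be told apart.

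PLVAP, plasmalemma vesicle associated protein, forms the diaphragms that close caveolae and fenestrae, and is best known from endothelium. Hepatic stellate cells lie between the sinusoidal endothelium and the hepatocytes, store vitamin A as retinyl esters and make matrix when the liver is injured. During a fast, fatty acids released from fat tissue reach the liver, where hepatocytes take them up, store them in lipid droplets, and oxidise them in mitochondria and peroxisomes or convert them to ketone bodies. The nuclear receptor PPARA, activated by fatty acids, turns on many genes of these steps.

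Each library held between 13396881 and 18708646 counts, and mitochondrial genes took between 5.05% and 6.85% of them. Principal components of the 1000 most variable genes did not split the livers cleanly by genotype. Component 1 (39.2% of the variance) placed knockouts A, B, D and E between -19.92 and -9.43, whereas knockout C lay at 5.98. Controls A to C lay between 17.42 and 23.13 on the same axis, and controls D to F between -5.09 and 0.40. Knockout C is therefore left out in turn, and the counts that rest most on it are given without it as well. It was picked for lying toward the controls, so leaving it out favours calls. The defining genes of liver were present in every library, and albumin alone took 5.58% ± 0.724 of all counts in knockouts (SD, n = 5) and 3.02% ± 0.310 in controls (SD, n = 6).

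Plvap itself (ENSMUSG00000034845, GRCm39 chromosome 8, 71950409 to 71964396, minus strand) had 6.69, 4.24, 5.69, 4.62 and 5.43 CPM (counts scaled to library size) in the 5 knockout livers, against 20.9 CPM in the lowest, 26.7 in the median and 32.9 in the highest of the 6 control livers. No knockout liver came near a control liver, and knockout C was as low as the others. The mean was 5.34 ± 0.958 CPM in knockouts and 26.8 ± 4.42 CPM in controls, so that 19.9% of the control level remained, a log2 fold change (knockout over control throughout) of -2.32 ± 0.14 (SE) with an adjusted p of 1.33e-07. An exact two-sided permutation test gave p = 0.00216, the smallest that 5 against 6 livers allow. Of the 52 other genes tested within 1 Mb of Plvap none passed the threshold. The lowest adjusted p were those of Slc27a1, 0.057 Mb away (log2 fold change -0.56, adjusted p = 0.0942), and Gdf15 (1.43, adjusted p = 0.0971). Of 10 such genes around Lrat, the source of the transgene's promoter, 1 passed, the fibrinogen chain gene Fga. Over all tested genes 2.25% passed, so counts this small cannot show whether neighbouring genes differ from others. Lrat itself stood at 84.8% of control (log2 fold change -0.23 ± 0.14, adjusted p = 0.404).

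**Figure D1:**
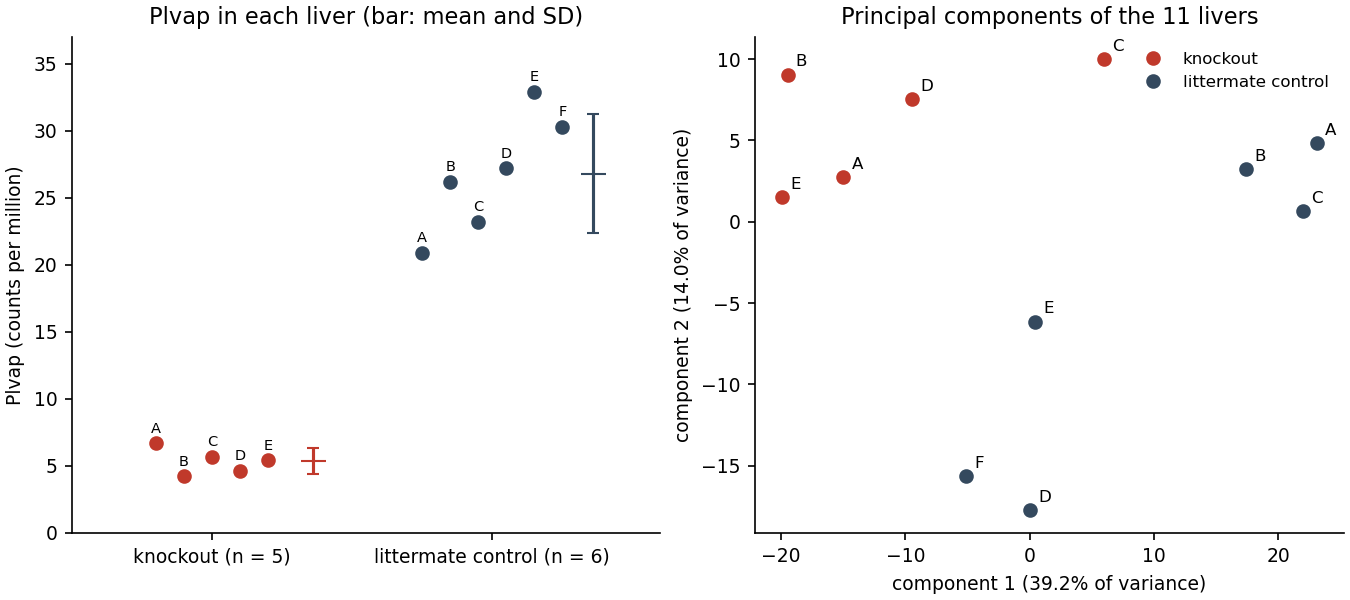
Left, Plvap in CPM in each liver (letters name the replicates), with the mean and SD of each group beside the points; the knockouts lie between 4.24 and 6.69 and the controls between 20.9 and 32.9. Right, the same livers on the first principal components of the 1000 most variable genes; knockout C lies at 5.98 on component 1, apart from the other knockouts.

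Across the liver transcriptome, 289 of 12840 tested genes (2.25%) passed an adjusted p of 0.05, 145 higher (1.13%) and 144 lower (1.12%) in knockout livers. Most changes were moderate. The median absolute log2 fold change among them was 0.60, and 58 genes moved by more than 2-fold, 26 up and 32 down. In 188 of the 289 genes (1.46% of all tested) the libraries of the groups did not overlap, 87 of them higher and 101 lower; over all tested genes, 367 (2.86%) had no overlap. The count depended on single livers: it was 550 without knockout C and 90 without knockout E, and 275 of the 289 genes were among those 550. Leaving out knockout A, B or D gave 139, 97 and 133 genes, and leaving out control A, B or C gave 160, 134 and 101. Where a single leave-out is printed beside a call below, it is the one with the highest adjusted p. Other leave-outs may lose that call too. Of 86 genes called and named by the rule, 27 kept the call in all 11 leave-outs.

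**Figure D2:**
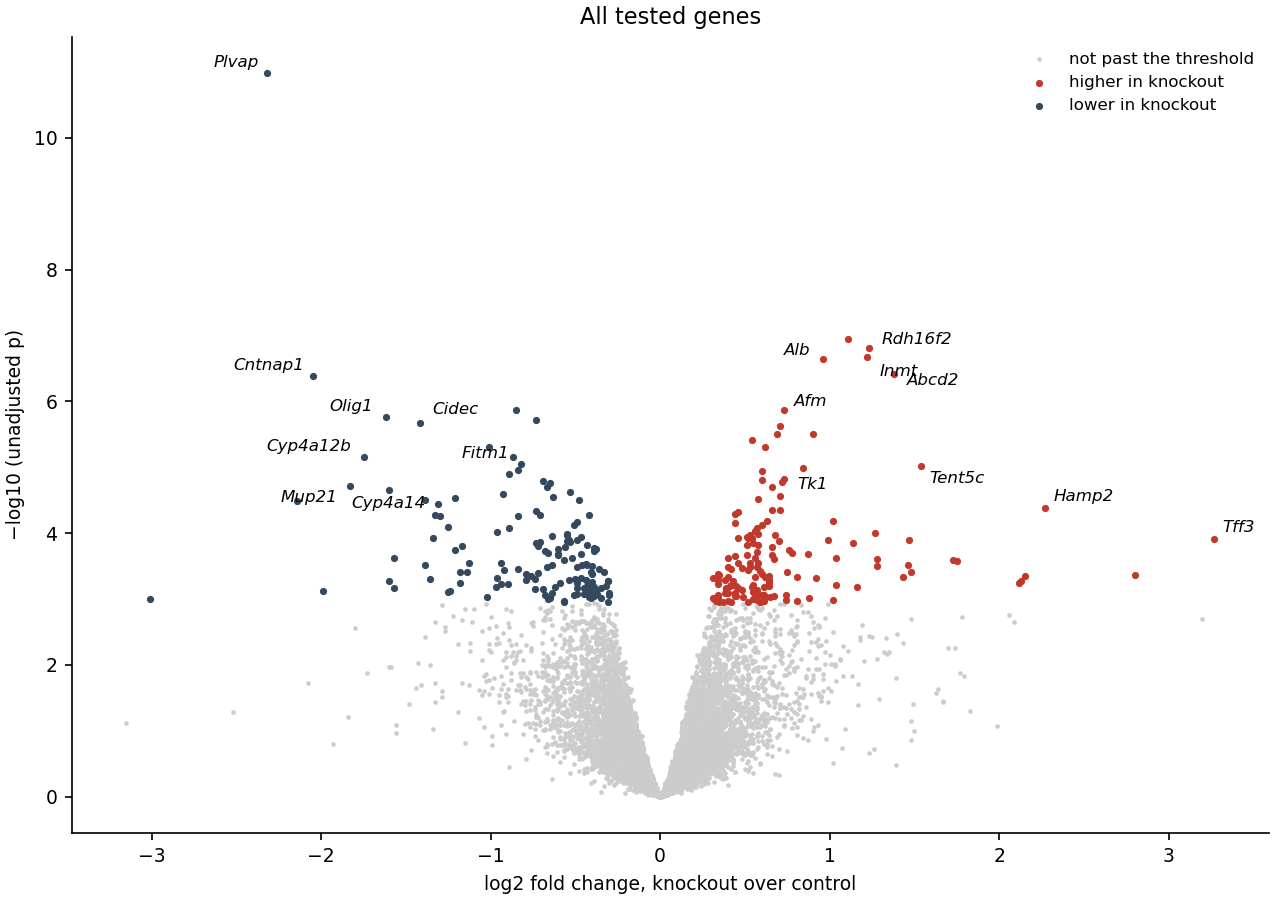
Every tested gene by its log2 fold change, knockout over control (horizontal), and the negative log10 of its unadjusted p (vertical, a log scale); genes past the adjusted threshold are coloured. Plvap stands alone at -2.32, and 145 genes lie to the right and 144 to the left past the threshold.

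The largest rise among well-expressed genes was that of Tff3, a trefoil peptide secreted by mucous epithelia (ENSMUSG00000024029, chromosome 17, 31344280 to 31348620, minus strand). It had 170, 268, 104, 171 and 160 CPM in knockout livers, against 5.35, 17.1 and 35.5 CPM in the lowest, median and highest control. All 5 knockouts lay above all 6 controls, and the log2 fold change was 3.27 ± 0.52 (adjusted p = 0.0192). Tff3 was listed among cholangiocyte markers, yet Krt19, the keratin that defines bile duct cells, had 0.757, 0.372, 1.18, 0.554 and 0.736 CPM in knockouts and 0.423 to 3.26 CPM in controls (log2 fold change -1.36 ± 0.46, adjusted p = 0.137). Apart from Tff3, none of the 10 tested cholangiocyte markers passed. Tent5c, a non-canonical poly(A) polymerase, averaged 26.8 CPM in knockouts and 9.17 in controls (log2 fold change 1.54 ± 0.22, adjusted p = 0.00563), with no overlap. Inmt, an indolethylamine N-methyltransferase and the 1 gene of 48 tested conjugation and glutathione genes that passed, had 881, 1045, 918, 621 and 662 CPM in knockouts, against 267, 364 and 406 CPM in the lowest, median and highest control (log2 fold change 1.22 ± 0.14, adjusted p = 0.000582). These 3 genes and Adam11, a disintegrin-like surface protein (log2 fold change 1.27 ± 0.24), stayed past the threshold whichever library was left out.

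Several other rises concerned genes at a few CPM. Gldn, which encodes gliomedin, averaged 2.30 CPM in knockouts and 0.316 in controls. Chrm3, a muscarinic acetylcholine receptor, averaged 1.91 CPM in knockouts and 0.673 in controls, and Esm1, an endothelial proteoglycan, averaged 1.9 CPM in knockouts and 0.678 in controls. Fam81a, Dsg1c (a desmosomal cadherin) and Serpinb8 (a protease inhibitor) also passed, with log2 fold changes of 2.13, 1.28 and 1.04. Each of these 6 lost its call when some single library was left out; the highest adjusted p was 0.0863 for Gldn (without control C), 0.0954 for Fam81a (without control A), 0.0891 for Chrm3 (without knockout E), 0.0624 for Esm1 (without knockout B), 0.0706 for Dsg1c and 0.0732 for Serpinb8 (both without knockout A).

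Among the falls, the 2 genes after Plvap with the lowest p among those named here by size were neural genes at a low level in liver. Cntnap1, which encodes an adhesion protein of axons, had 0.757, 1.19, 1.9, 1.97 and 0.962 CPM in knockouts, against 3.80, 5.64 and 7.95 CPM in the lowest, median and highest control, a log2 fold change of -2.05 ± 0.26 (adjusted p = 0.000749). Olig1, a transcription factor of oligodendrocytes, fell to 32.2% of control (log2 fold change -1.62 ± 0.23, adjusted p = 0.00219). Lamb3, a chain of the epithelial laminin 332, had 1.83, 2.53, 6.60, 4.5 and 3.45 CPM in knockouts and between 8.86 and 10.9 CPM in controls (log2 fold change -1.39 ± 0.24, adjusted p = 0.00949). Lad1, an anchoring filament protein, fell by 1.30 on the log2 scale. In all 4 of these genes the groups did not overlap, and the call held without any single library. Osbpl3 (an oxysterol-binding protein relative), Tspan8 (a tetraspanin) and Pnldc1 (an exonuclease that trims piRNAs) stood at 39.2%, 38.6% and 38.8% of control, each under 2 CPM in every knockout; their adjusted p reached 0.0574 (Osbpl3, without knockout B), 0.0838 (Tspan8, without knockout E) and 0.0984 (Pnldc1, without knockout B).

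Several lists of fatty acid handling held falls and few rises. Over all tested genes, 1.12% were lower and 1.13% higher, and the list counts below stand beside these shares. Beginning with uptake and activation, 2 of 20 tested genes fell and none rose (median log2 fold change of the list -0.12, against -0.01 over all tested genes). Fabp2, a cytosolic fatty acid binding protein, had 73.7, 62.2, 147, 118 and 55.0 CPM in knockouts, against 179, 205 and 235 CPM in the lowest, median and highest control (log2 fold change -1.18 ± 0.24, adjusted p = 0.0323). Acsl1, which couples fatty acids to coenzyme A, had 1044, 750, 1589, 1062 and 892 CPM in knockouts, against 1294, 1711 and 1958 CPM in the lowest, median and highest control (log2 fold change -0.65 ± 0.16, adjusted p = 0.0466). Only knockout C reached into the control range for Acsl1. Fabp1, the main liver fatty acid binding protein, did not pass (56.9% of control, log2 fold change -0.81 ± 0.28, adjusted p = 0.156), nor did the fatty acid receptor and transporter Cd36 (88.4% of control, adjusted p = 0.522) or the transporter Slc27a1 (68.1%, adjusted p = 0.0942). Fabp1 passed only without knockout C (adjusted p = 0.0312) and missed the threshold in the other 10 leave-outs. The list had 3 falls without knockout C and none without any 1 of knockouts A and B and controls A to C. Both calls were near the threshold. Fabp2 lost its call in 6 of 11 leave-outs (highest adjusted p 0.0748, without control C) and Acsl1 in 9 of 11 (0.122, without knockout E).

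In mitochondrial beta oxidation, 5 of 22 tested genes fell and none rose, and 20 of the 22 lay below 0 with a median log2 fold change of -0.30. Cpt1a, the gate of mitochondrial entry, had 322 CPM in the lowest, 357 in the median and 428 in the highest knockout, against 438, 482 and 532 CPM in the lowest, median and highest control (log2 fold change -0.39 ± 0.09, adjusted p = 0.0393). Every knockout was below every control, by a margin that was narrow for knockout C. Cpt2, which completes that entry on the inner membrane, had 166, 142, 234, 164 and 167 CPM in knockouts and 232 to 257 CPM in controls (log2 fold change -0.47 ± 0.11, adjusted p = 0.0351), with knockout C inside the control range. Decr1, needed to oxidise polyunsaturated fatty acids, averaged 265 ± 47.7 CPM in knockouts and 389 ± 22 CPM in controls (log2 fold change -0.55 ± 0.11, adjusted p = 0.0190). Hadhb, a subunit of the trifunctional protein, fell to 73.5% of control, and Slc22a5, the carnitine importer, to 63.1%. Acadm, the medium-chain acyl-CoA dehydrogenase, had no overlap between the groups but did not pass (79.3% of control, adjusted p = 0.0801). The number of falls in this list was 10 without knockout C and 0 without knockout E.

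The ketogenesis list had 1 fall among 8 tested genes, Slc16a1, the transporter that carries ketone bodies and lactate across the cell membrane. It had 70.6, 48.6, 90.3, 54.9 and 67.7 CPM in knockouts, against 100 CPM in the lowest, 108 in the median and 131 in the highest control (log2 fold change -0.73 ± 0.13, adjusted p = 0.0121). Slc16a1 kept its call whichever library was left out, and without knockout C the ketogenesis list had 4 falls.

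Peroxisomal oxidation had 2 falls and 1 rise among 27 tested genes, with a median log2 fold change of -0.26. Hsd17b4, a bifunctional enzyme of the pathway, averaged 405 CPM in knockouts and 563 in controls without overlap (log2 fold change -0.48 ± 0.08, adjusted p = 0.00952). Abcd2, which moves very long chain acyl-CoA into peroxisomes, went the other way. It had 27.8, 34.2, 34.4, 20.1 and 32.6 CPM in knockouts, against 8.10, 11.2 and 15.3 CPM in the lowest, median and highest control (log2 fold change 1.38 ± 0.16, adjusted p = 0.000749). Ehhadh, the other bifunctional enzyme, had 455, 206, 1169, 539 and 576 CPM in knockouts and 1034 to 1890 CPM in controls, and did not pass (log2 fold change -1.39 ± 0.37, adjusted p = 0.0881); neither did Pex11a, a peroxisome division factor (58.9% of control, adjusted p = 0.0712). In Ehhadh and Pex11a knockout C lay inside the control range, and both passed only without it (adjusted p = 0.00637 and 0.0134). The list had 8 falls without knockout C, and 1 without any 1 of knockouts B, D and E.

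Omega hydroxylation, the entry to another route of fatty acid oxidation, had 4 of 14 tested genes lower and none higher (median log2 fold change -0.36). In this list 6 were lower without knockout C, and 3 without any 1 of knockouts B, D and E. Cyp4a14 (ENSMUSG00000028715, chromosome 4, 115343397 to 115353339, minus strand), a fatty acid hydroxylase, had 2502, 1413, 4137, 2924 and 2075 CPM in knockouts, against 4891, 6698 and 7475 CPM in the lowest, median and highest control. The groups did not overlap, and the log2 fold change was -1.31 ± 0.22 (adjusted p = 0.0102). Cyp4a12a had 21.1, 24.1, 59, 36.0 and 40.9 CPM in knockouts, against 93.8, 110 and 123 CPM in the lowest, median and highest control (log2 fold change -1.60 ± 0.23, adjusted p = 0.00803), and its neighbour Cyp4a12b fell by 1.75 on the log2 scale (adjusted p = 0.00451). Cyp4a32 stood at 62.5% of control (adjusted p = 0.0229, and 0.0656 without knockout E). Cyp4a10 had 973, 905, 2109, 1100 and 903 CPM in knockouts and 1698 to 2333 CPM in controls, with knockout C alone at the control level. It did not pass (log2 fold change -0.75 ± 0.21, adjusted p = 0.0747). Only the fit without knockout C called it (adjusted p = 0.000223). These genes are close relatives: of the 50-base words in the transcripts of Cyp4a12b, 49.4% also occur in Cyp4a12a, and of those in Cyp4a32, 32.6% also occur in Cyp4a10, so their separate values are uncertain, whereas Cyp4a14 shares none with Cyp4a10.

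Of 13 tested acyl-CoA thioesterases, which release fatty acids from coenzyme A, 2 fell and none rose; 3 fell without knockout C, and 1 without any 1 of knockouts A, B and E. Acot2, the mitochondrial form, had 2.90, 3.05, 7.13, 3.76 and 2.66 CPM in knockouts, against 7.0, 9.61 and 12.3 CPM in the lowest, median and highest control (log2 fold change -1.33 ± 0.24, adjusted p = 0.0126). Acot8, a peroxisomal form, stood at 65.9% of control without overlap (adjusted p = 0.0216, and 0.0670 without knockout E). Acot1, the cytosolic form, was at 30.2% of control but too variable to pass (21.5, 11.3, 91.8, 37 and 19.3 CPM in knockouts and 64.2 to 171 CPM in controls, adjusted p = 0.155). Acot1 passed only without knockout C (adjusted p = 0.0223). Acot2 shares 24.5% of its 50-base words with Acot1.

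Lipid droplet genes had 3 falls and no rise among 23 tested (median log2 fold change -0.17). Cidec, which fuses lipid droplets, had 3.72, 2.01, 6.08, 3.70 and 3.85 CPM in knockouts, against 9.15, 9.54 and 12.8 CPM in the lowest, median and highest control (log2 fold change -1.42 ± 0.20, adjusted p = 0.00223). Fitm1, which partitions triglyceride into droplets, had 8.71, 8.93, 9.48, 7.45 and 6.85 CPM in knockouts and 11.7 to 17.5 CPM in controls (log2 fold change -0.82 ± 0.13, adjusted p = 0.00553). In both genes every knockout, knockout C included, was below every control. Cidec was also the 1 gene to pass among 7 tested of the PPARG and adipose type (median log2 fold change -0.44). Clstn3, of which an adipocyte form binds lipid droplets, had 6.31, 4.69, 14.3, 4.56 and 6.06 CPM in knockouts and 15.5 to 30.1 CPM in controls (log2 fold change -1.57 ± 0.30, adjusted p = 0.0253; 0.0737 without knockout E). Plin2, the general droplet coat, did not pass (62.8% of control, adjusted p = 0.173). It had 1297 CPM in knockout C and 358 to 710 CPM in the other knockouts, against 1020 to 1292 CPM in controls. Plin2 passed only without knockout C (adjusted p = 0.00299). The list had 6 falls without knockout C, and 2 without any 1 of knockouts A, B, D and E and controls A and C. Dgat2, the enzyme of the last step of triglyceride synthesis, was the 1 gene of 14 in its list to pass and was higher, although 12 of the 14 lay below 0, with 394 CPM in the lowest, 442 in the median and 466 in the highest knockout, against 299, 324 and 347 CPM in the lowest, median and highest control (log2 fold change 0.44 ± 0.08, adjusted p = 0.0126).

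**Figure D3:**
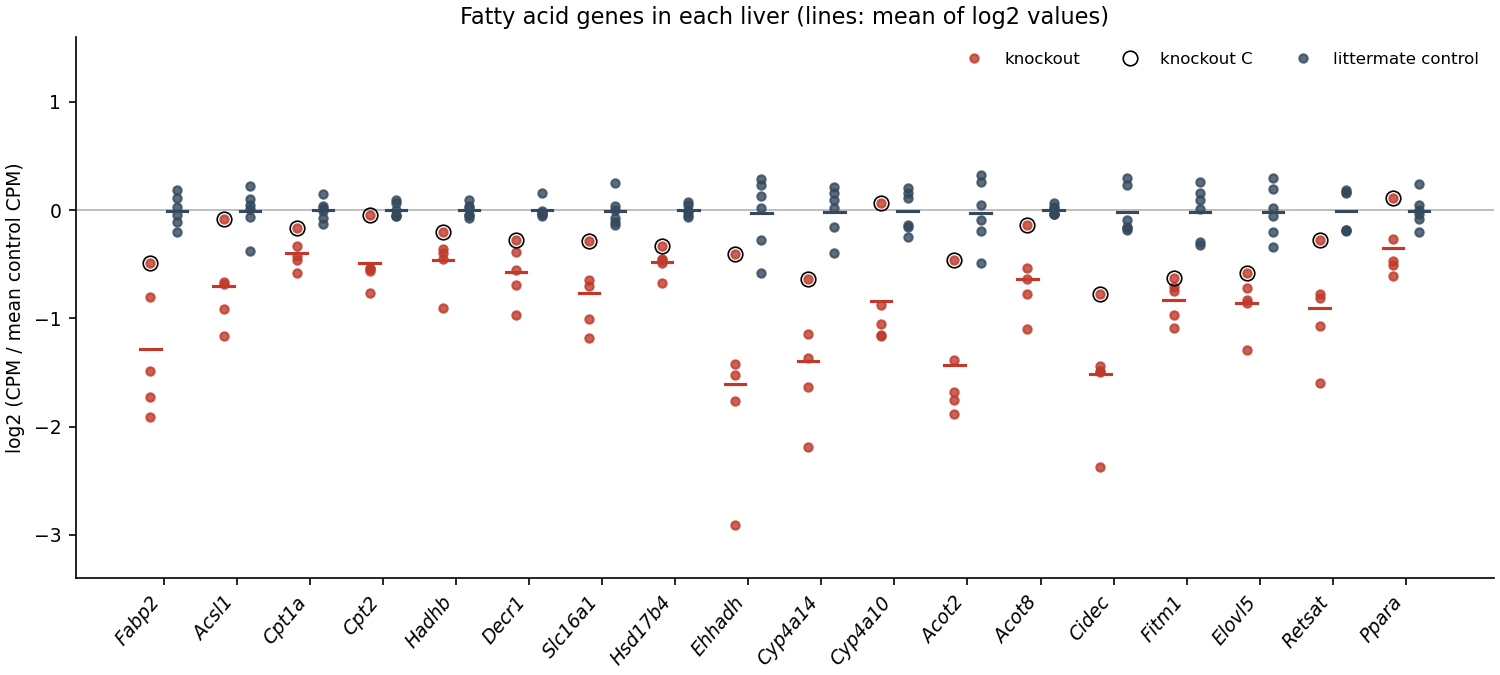
Fatty acid genes in each liver as the log2 of CPM over the mean control CPM (vertical), knockouts to the left of controls for every gene, with lines at the mean of the log2 values and knockout C ringed. Cyp4a10, Cpt2 and Ppara show knockout C among the controls, while Cidec, Fitm1, Cyp4a14 and Elovl5 show all 5 knockouts below all 6 controls.

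Among the regulators of the fasting response 1 gene passed. Ppara had 41.3, 37.5, 61.6, 47.3 and 40.1 CPM in knockouts and 49.6 to 67.4 CPM in controls (log2 fold change -0.33 ± 0.12, adjusted p = 0.159). It passed only without knockout C (adjusted p = 0.0151). Fgf21, a fasting hormone made by the liver, spanned 1.94 to 16.8 CPM in knockouts and 2.59 to 12.2 CPM in controls (adjusted p = 0.798). Pdk4, which restrains glucose oxidation, stood at 75.4% of control (adjusted p = 0.674), and Angptl4, a lipase inhibitor, at 122% (adjusted p = 0.240). Of the 21 tested genes in that list the call was that of Retsat, a retinol saturase, with 437, 254, 634, 447 and 364 CPM in knockouts, against 671, 764 and 871 CPM in the lowest, median and highest control (log2 fold change -0.84 ± 0.18, adjusted p = 0.0303; 0.0838 without knockout E).

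Lipogenesis had 3 falls and no rise among 29 tested genes, and the median of the list was 0.08. It had 6 falls and 2 rises without knockout C, and 1 fall without any 1 of knockouts A, B and E and control C. Those that fell were the elongases of polyunsaturated fatty acids Elovl5 and Elovl2 and the acetyl-CoA carboxylase Acacb. Elovl5 had 508, 376, 613, 557 and 516 CPM in knockouts, against 727, 907 and 1127 CPM in the lowest, median and highest control (log2 fold change -0.84 ± 0.14, adjusted p = 0.00575). Elovl2 and Acacb fell by 0.66 and 0.74 on the log2 scale (adjusted p = 0.0237 and 0.0355; 0.0673 without knockout B and 0.0819 without knockout E). Fasn and Scd1, the fatty acid synthase and the delta-9 desaturase, did not pass (adjusted p = 0.682 and 0.702). Scd1 had 7708 CPM in knockout A and 1509 to 2512 CPM in the other knockouts, against 2103 to 3073 CPM in controls. In cholesterol synthesis and uptake, 1 of 27 genes passed and was lower, while 21 of the 27 lay above 0 with a median log2 fold change of 0.26. It was Insig2, which holds the sterol sensor complex in the endoplasmic reticulum. It had 255 CPM in the lowest, 342 in the median and 557 in the highest knockout and 587 to 763 CPM in controls (log2 fold change -0.79 ± 0.17, adjusted p = 0.0332; 0.0878 without knockout E). No gene passed among 11 of sterol export and LXR signalling, and among 24 lipoprotein and lipase genes 1 did, Gpihbp1, the endothelial anchor of lipoprotein lipase (139% of control, adjusted p = 0.0296; 0.0804 without knockout A); Lpl itself stood at 114% of control (adjusted p = 0.443).

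Of 24 tested genes of glucose output 1 rose and 1 fell. Foxo1, the transcription factor that insulin restrains, was higher (161% of control, log2 fold change 0.68 ± 0.13, adjusted p = 0.0190, and 0.0574 without knockout B). Sik1, a kinase that curbs gluconeogenic transcription, was lower (50.8% of control, adjusted p = 0.0393). Its call was lost in 10 of 11 leave-outs (highest adjusted p 0.103, without knockout B). Pck1 and G6pc, the enzymes at the start and end of gluconeogenesis, stood at 92.1% and 96.3% of control (adjusted p = 0.627 and 0.938). Of 21 insulin and IGF signalling genes none passed except Insig2, and Igf1 stood at 105% of control.

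Plasma protein genes were among those that rose. Of 24 tested genes of the albumin family and other carriers, 8 rose and none fell (median log2 fold change 0.55, 22 of 24 above 0), and of 40 complement and coagulation genes 5 rose and none fell (median 0.25, 38 of 40 above 0). Alb (ENSMUSG00000029368, chromosome 5, 90608756 to 90624461, plus strand), the most abundant plasma protein, had 54021, 71908, 52740, 53661 and 55376 CPM in knockouts, against 26254, 28502 and 32998 CPM in the lowest, median and highest control. Its log2 fold change was 0.96 ± 0.12 (adjusted p = 0.000582), and knockout C lay with the other knockouts. Afm, a vitamin E binding relative of albumin whose gene lies near it on chromosome 5, averaged 170 CPM in knockouts and 103 in controls (log2 fold change 0.73 ± 0.10, adjusted p = 0.00193). Ahsg, the carrier fetuin-A, had 8469, 11028, 8321, 8831 and 11565 CPM in knockouts, against 5523, 6383 and 7672 CPM in the lowest, median and highest control (log2 fold change 0.56 ± 0.13, adjusted p = 0.0347). Agt, the precursor of angiotensin, stood at 145% and Serpina6, which binds corticosteroids, at 172% of control (adjusted p = 0.0190 and 0.0237). Gc, the vitamin D binding protein, and Trf, transferrin, stood at 131% and 147% of control and did not pass (adjusted p = 0.0730 and 0.11). Both passed only without knockout C (adjusted p = 0.0295 and 0.043). The number of carrier genes that rose was 11 without knockout C and 2 without knockout B or control C.

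In the complement and coagulation list, Mbl2, a mannose-binding lectin, had 729, 861, 654, 543 and 646 CPM in knockouts, against 401, 450 and 524 CPM in the lowest, median and highest control (log2 fold change 0.60 ± 0.12, adjusted p = 0.0154). Cfi, the protease that cleaves C3b, stood at 158%, the clotting factor F7 at 150%, Serpind1 (heparin cofactor II) at 132% and the fibrinogen alpha chain Fga at 149% of control (adjusted p = 0.0243, 0.0203, 0.0290 and 0.0440). The other fibrinogen chains Fgb and Fgg stood at 131% and 122% and did not pass (adjusted p = 0.338 and 0.436). Prothrombin, F2, had no overlap between the groups yet missed the threshold (130% of control, adjusted p = 0.0706). Of the genes named here from the plasma protein lists, Alb, Afm and Mbl2 kept their call whichever library was left out. The highest adjusted p was 0.10 for Ahsg, 0.0560 for Agt, 0.0727 for Cfi, 0.0838 for Serpind1 and 0.115 for Fga without knockout E, and 0.0659 for Serpina6 and 0.0626 for F7 without knockout B. The count of rises in the complement and coagulation list ran between 1 (without knockout B, knockout E or control C) and 8 (without control E). In the acute phase list, where 2 of 28 genes rose, the one besides Fga was Il6ra, a chain of the interleukin 6 receptor (169% of control, adjusted p = 0.0323; 0.0838 without knockout E). The summed CPM of that list spanned 22968 to 65988 in knockouts and 16188 to 71096 in controls.

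Some genes with a sex bias in mouse liver, a bias set by the pattern of growth hormone release, passed the threshold among these male animals. Of 40 tested male-biased and growth hormone responsive genes 5 fell and none rose (median log2 fold change -0.30). Of 36 listed female-biased genes 19 were tested, of which 4 rose and none fell (median 0.32). A gene at a low level can pass the expression filter through the 5 knockouts alone, as Cyp3a44 could. The female-biased counts and median may therefore lean toward rises. Mup21, a major urinary protein, had 77.8, 79.1, 111, 130 and 80.2 CPM in knockouts, against 166, 341 and 467 CPM in the lowest, median and highest control (log2 fold change -1.83 ± 0.26, adjusted p = 0.00759). Cyp4a12a and Cyp4a12b, described above, belong to this list too. Mup20, which encodes the male pheromone darcin, had 4138, 5076, 6413, 5944 and 3361 CPM in knockouts, against 6046, 7952 and 9952 CPM in the lowest, median and highest control (log2 fold change -0.68 ± 0.17, adjusted p = 0.0443). Cyp2d9, a steroid hydroxylase, stood at 75.1% of control (adjusted p = 0.0466). Mup20 and Cyp2d9 each lost their call in 8 of 11 leave-outs, with the highest adjusted p without knockout A (0.113 and 0.117). The male-biased list had 7 falls and 1 rise without knockout C, and 3 falls without any 1 of knockouts A, B, D and E and controls B, C and E. The female-biased list had 5 rises without knockout C, and 2 without any 1 of knockouts A, B and E and controls B and C.

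On the female-biased side, Abcd2 and Prlr, the prolactin receptor, rose along with Hamp2 and Cyp3a44. Prlr had 122, 163, 85.8, 137 and 152 CPM in knockouts, against 69.5, 83.2 and 107 CPM in the lowest, median and highest control (log2 fold change 0.64 ± 0.15, adjusted p = 0.0362), with knockout C inside the control range. The Prlr call was lost in 8 of 11 leave-outs (highest adjusted p 0.0989, without knockout B). Cyp3a44, a cytochrome of female liver, averaged 1.70 CPM in knockouts and 0.491 in controls (adjusted p = 0.0271; 0.0796 without knockout B), and shares 11.5% of its 50-base words with Cyp3a41a. Cux2, a transcription factor of female liver, had 2.90, 27.5, 1.77, 11 and 17.5 CPM in knockouts and 0.492 to 9.55 CPM in controls, too variable to pass (adjusted p = 0.284). The growth hormone receptor Ghr stood at 117% of control (adjusted p = 0.218). Females were not among these livers, so the size of the sex difference itself was not tested.

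**Figure D4:**
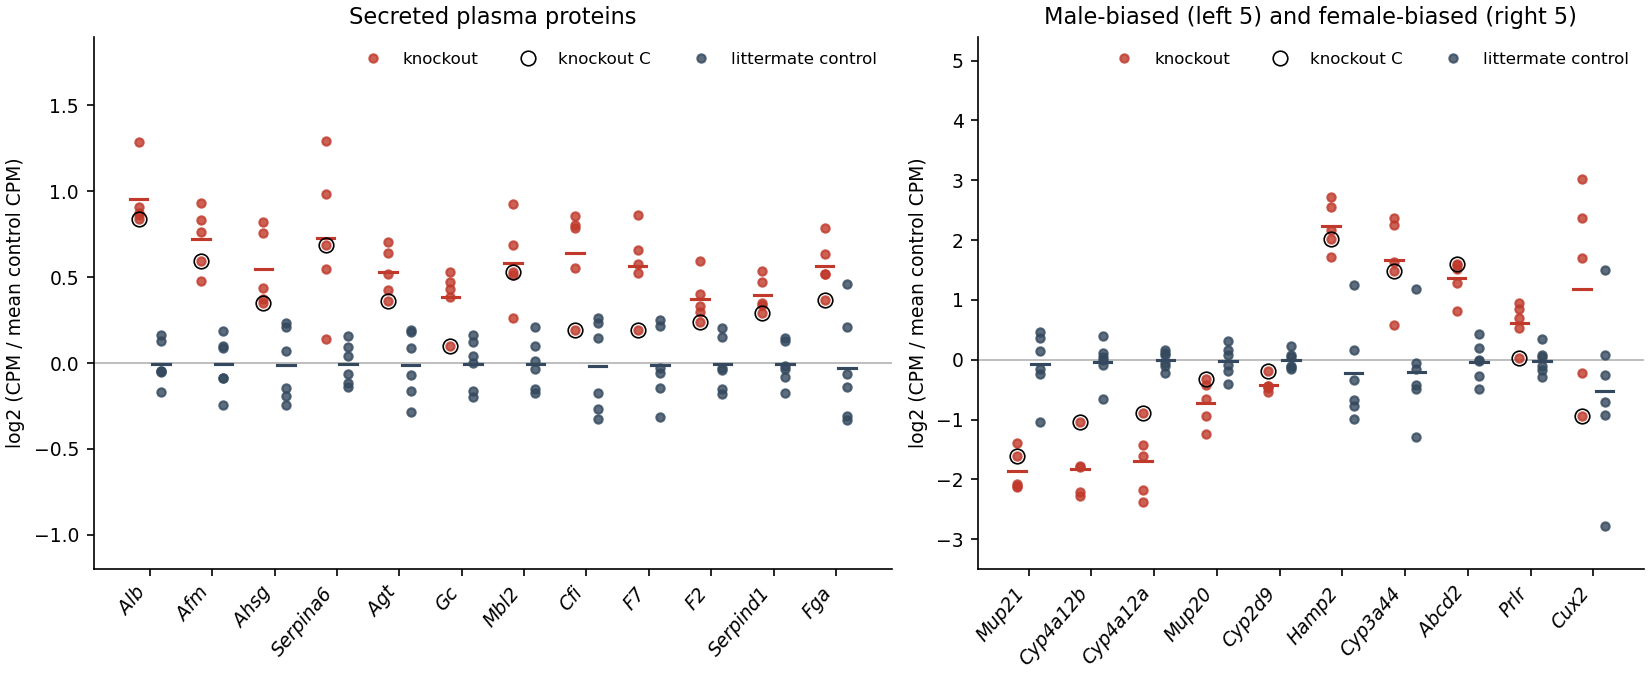
Secreted plasma proteins (left) and genes with a sex bias in mouse liver (right) in each liver, as the log2 of CPM over the mean control CPM, knockouts to the left of controls for every gene, with lines at the mean of the log2 values and knockout C ringed. Alb, Afm, Ahsg and Mbl2 show no overlap of the groups, Mup21 and both Cyp4a12 genes lie below the controls, and Cux2 spans both groups.

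Among iron and retinoid genes, 2 neighbouring gene pairs are described because their members did not share a call. Hamp2 and Hamp are neighbouring copies of the hepcidin gene, of which Hamp makes the hormone that limits iron release. Hamp2 (ENSMUSG00000056978, chromosome 7, 30621797 to 30624106, minus strand) had 7.38, 14.8, 9.15, 13.2 and 10.1 CPM in knockouts, against 1.13, 1.59 and 5.33 CPM in the lowest, median and highest control (log2 fold change 2.27 ± 0.36, adjusted p = 0.0114). Hamp had 275, 52.3, 326, 595 and 227 CPM in knockouts, against 456, 812 and 1053 CPM in the lowest, median and highest control, and did not pass (log2 fold change -1.41 ± 0.51, adjusted p = 0.191). The pair share 11.2% of the 50-base words of Hamp2, so a part of its reads could belong to either. Bmp6, the endothelial signal that induces hepcidin, was lower (59.9% of control, adjusted p = 0.0402). Its call was lost in 8 of 11 leave-outs (highest adjusted p 0.105, without knockout B). Among 22 tested iron genes, Hamp2 and Bmp6 were the 2 that passed, and 2.25% of all tested genes passed.

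In retinoid handling, 2 of 27 tested genes rose and 2 fell. Rdh16f2 and Rdh16 are neighbouring genes for retinol dehydrogenases. Rdh16f2 (ENSMUSG00000074639, chromosome 10, 127702343 to 127713186, plus strand) had 289, 363, 249, 284 and 318 CPM in knockouts, against 85.6, 133 and 160 CPM in the lowest, median and highest control (log2 fold change 1.23 ± 0.14, adjusted p = 0.000582). Rdh16 had 66.5, 76.6, 81.5, 68.2 and 71.8 CPM in knockouts, against 81.0, 96.4 and 113 CPM in the lowest, median and highest control (log2 fold change -0.43 ± 0.09, adjusted p = 0.0288; 0.0743 without knockout A). Their transcripts share no 50-base word, so reads of one are not readily counted for the other. Retsat, described above, was the other fall.

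The 250 bases before the start of these 2 gene pairs are shown because each pair lies side by side and its members did not share a call: Rdh16f2 rose and Rdh16 fell, whereas Hamp2 rose and Hamp did not pass. The difference within a pair was not tested. They are RefSeq sequences of build GRCm38.p6, each 5′ to 3′ on the strand of its gene: Rdh16f2 at chr10:127866226-127866475 (plus), Rdh16 at chr10:127800903-127801152 (plus), Hamp2 at chr7:30924182-30924431 (minus) and Hamp at chr7:30944030-30944279 (minus). Capitals mark matches on either strand to AGGTCA, a core site of many nuclear receptors, or to TATAAA, the TATA box.
Rdh16f2: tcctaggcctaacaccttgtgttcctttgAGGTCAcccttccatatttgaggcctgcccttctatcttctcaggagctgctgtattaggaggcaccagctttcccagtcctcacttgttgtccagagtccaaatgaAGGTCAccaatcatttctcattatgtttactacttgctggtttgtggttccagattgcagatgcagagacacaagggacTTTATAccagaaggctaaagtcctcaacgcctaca
Rdh16: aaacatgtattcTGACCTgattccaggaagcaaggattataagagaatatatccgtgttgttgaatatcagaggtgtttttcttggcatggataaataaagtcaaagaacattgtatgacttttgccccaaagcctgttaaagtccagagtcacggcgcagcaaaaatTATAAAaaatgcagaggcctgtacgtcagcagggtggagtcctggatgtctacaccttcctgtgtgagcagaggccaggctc
Hamp2: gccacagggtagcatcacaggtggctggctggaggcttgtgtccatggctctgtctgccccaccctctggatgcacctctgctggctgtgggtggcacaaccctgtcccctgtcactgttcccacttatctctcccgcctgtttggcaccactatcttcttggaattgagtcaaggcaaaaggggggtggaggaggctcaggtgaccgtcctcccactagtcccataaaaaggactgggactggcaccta
Hamp: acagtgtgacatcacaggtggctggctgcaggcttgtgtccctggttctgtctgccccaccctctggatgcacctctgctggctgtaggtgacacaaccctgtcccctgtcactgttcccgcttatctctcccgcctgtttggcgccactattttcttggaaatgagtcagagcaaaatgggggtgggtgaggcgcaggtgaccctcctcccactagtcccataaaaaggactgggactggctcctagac
In a global alignment with gapped positions left aside, the windows of Hamp2 and Hamp are identical at 227 of 247 aligned bases (91.9%), and those of Rdh16f2 and Rdh16 at 126 of 202 (62.4%). Rdh16f2 holds AGGTCA at 221 to 216 and at 114 to 109 bases before its start and TATAAA, on the opposite strand, at 35 to 30. Rdh16 holds AGGTCA on the opposite strand at 238 to 233 and TATAAA at 82 to 77. The hepcidin windows hold neither string. Over the 9826 tested genes with such a sequence, 13.5% hold AGGTCA and 8.6% hold TATAAA. Among the genes that rose these shares were 19.6% and 13.1% of 107, and among those that fell 14.9% and 12.9% of 101. These are matches of letters and say nothing of binding.

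Cyp39a1, an oxysterol hydroxylase, was the 1 of 25 bile acid genes to pass (162% of control, adjusted p = 0.0193; 0.0626 without knockout B). Of 34 drug-metabolising cytochromes Cyp2c67 fell to 66.2% of control (adjusted p = 0.0243; 0.0693 without knockout B), beside Cyp2d9 and Cyp3a44. By liver zone, 2 of 32 periportal genes rose, Alb and Uroc1, an enzyme of histidine breakdown (138% of control, adjusted p = 0.0282; 0.0683 without knockout B), and 1 of 32 pericentral genes fell, Oat, the ornithine aminotransferase (64.3% of control, adjusted p = 0.0190; 0.0503 without knockout B). Single genes passed among glucocorticoid genes (Hsd11b1, which makes active glucocorticoid, 142%, adjusted p = 0.0203; 0.0573 without knockout D), interferon-stimulated genes (Irf7, 146%, adjusted p = 0.0190; 0.0530 without knockout D) and cell cycle genes (Tk1, a thymidine kinase, 164%, adjusted p = 0.00905). Over all tested genes 2.25% passed, 1.13% higher and 1.12% lower. Such small counts per list are not read as a change of the list. None passed among 21 immediate early, 27 endoplasmic reticulum stress, 19 heat shock, 74 nuclear and 7 mitochondrial respiratory chain genes. The members with the lowest p were Fosl2 (adjusted p = 0.10), Herpud1 (0.162), Hspb1 (0.188), Ndufa5 (0.107) and mt-Nd4 (0.607). Of 79 ribosomal protein genes 4 rose (Rpl13, Rpl17, Rpl37a and Rpl7a, at 127%, 140%, 130% and 124% of control) and 74 lay above 0, with a median of 0.24; the count was 23 with DESeq2, 22 without control E and 0 without any 1 of knockouts A, D and E and controls A to C.

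**Figure D5:**
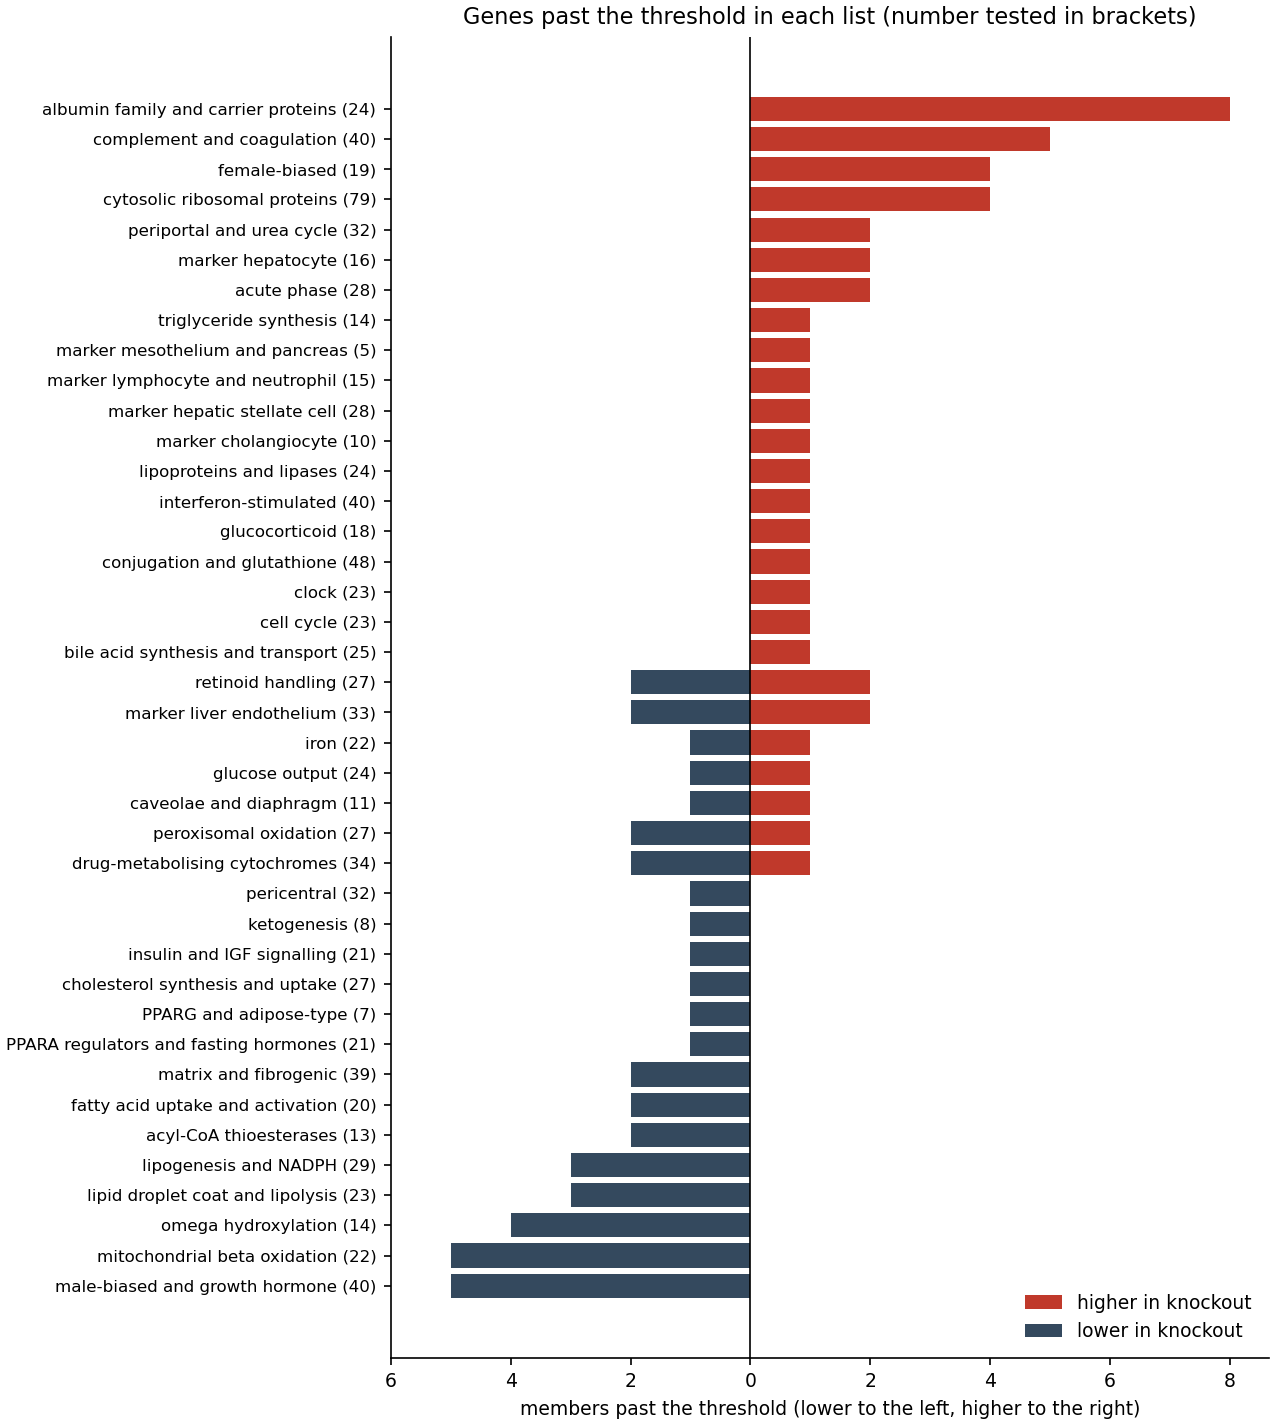
Number of genes past the threshold in each list with at least 1 call, lower in knockouts to the left of 0 and higher in knockouts to the right, with the number tested in brackets. The carrier proteins reach 8 to the right, and mitochondrial beta oxidation and the male-biased genes reach 5 to the left.

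Markers of the cells in which Plvap was deleted gave 1 call. Of 28 tested stellate cell markers 1 passed, and it rose; the median log2 fold change was -0.01, and the summed level was 636 to 718 CPM in knockouts and 551 to 680 CPM in controls. Dcn and Reln, markers of quiescent stellate cells, stood at 106% and 83.4% of control and the filament gene Des at 84.3% (adjusted p = 0.729, 0.182 and 0.474). Among 39 matrix and fibrogenic genes 2 fell, Lamb3 and Ccn1, a matricellular protein (44.4% of control, adjusted p = 0.0375; 0.0986 without knockout E), and Col1a1 had 0.745 to 2.04 CPM in knockouts and 1.59 to 4.04 CPM in controls (adjusted p = 0.164). Of 11 tested genes of caveolae and diaphragms, Ror1, a receptor tyrosine kinase-like protein, was the only one besides Plvap to pass (168% of control, adjusted p = 0.0442). The Ror1 call was lost in 9 of 11 leave-outs (highest adjusted p 0.124, without knockout B). Cav1, the caveolin of caveolae, stood at 72.4% of control (adjusted p = 0.293).

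Endothelial markers, whose cells also express Plvap, split evenly: 2 of 33 tested rose (Lyve1 and Gpihbp1) and 2 fell (Ptprb and Bmp6), with summed levels of 674 to 771 CPM in knockouts and 673 to 799 CPM in controls. Lyve1, a hyaluronan receptor of sinusoidal endothelium, had 20.3, 20.5, 19.9, 22.3 and 20.2 CPM in knockouts, against 7.50, 13.8 and 17.1 CPM in the lowest, median and highest control (log2 fold change 0.64 ± 0.15, adjusted p = 0.0347; 0.0798 without knockout D). Ptprb, a phosphatase of endothelial junctions, stood at 75.8% of control without overlap (adjusted p = 0.0288; 0.0758 without knockout D), and the VEGF receptor Kdr at 77.7% (adjusted p = 0.0934). Kupffer cell and macrophage markers gave no call among 25, with 21 of them above 0, a median of 0.24, and sums of 1346 to 1718 CPM in knockouts and 1154 to 1420 CPM in controls; Clec4f, which defines Kupffer cells, stood at 127% of control (adjusted p = 0.136) and Cd5l at 141% (adjusted p = 0.101). Of 24 listed lymphocyte and neutrophil markers 15 were tested, and all 15 lay above 0. Low markers can pass the filter through the 5 knockouts alone, so this count may lean toward rises. Among the 15, 1 passed (Igkc, an immunoglobulin chain, 153% of control, adjusted p = 0.0488, and 0.117 without knockout E). The sums over all 24 were 73.4 to 131 CPM in knockouts and 52.1 to 73.1 CPM in controls. Globins summed to 445 to 1380 CPM in knockouts and 393 to 559 CPM in controls, highest in knockout B, with no call among 5 (Hba-a1, adjusted p = 0.161). Cholangiocyte markers, Tff3 among them, summed to 280 to 416 CPM in knockouts and 173 to 256 CPM in controls. Tff3 alone had 104 to 268 CPM in knockouts and 5.35 to 35.5 CPM in controls. Of the 10 tested cholangiocyte markers 6 lay below 0, and their median log2 fold change was -0.23. Of 16 hepatocyte markers 2 rose, Alb and Ahsg. Mesothelium and pancreas markers summed to 126 to 150 CPM in knockouts and 130 to 207 CPM in controls, with Cela2a, a pancreatic elastase, at 0.906 to 2.16 CPM in knockouts and 0.613 to 0.946 CPM in controls (adjusted p = 0.0391; 0.108 without knockout B). No call fell among 4 adipocyte markers (Fabp4, adjusted p = 0.613). The part of these cells in the results above was not tested.

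Counts themselves were spread a little differently. The 10 genes with most counts took 16.3% to 18.1% of each knockout library and 13.9% to 15% of each control library. Besides Alb, the 5 genes with most counts were Serpina3k, Apoe, mt-Co1 and Apoa1, at 95.7%, 107%, 95.2% and 126% of control, none of which passed. Called genes were shorter than others, with a median length of 2923 bases for those higher and 3809 for those lower, against 4263 for all tested, and the log2 fold change had a Spearman correlation of -0.21 with gene length across genes, which are not independent replicates.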

How the data were processed

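Total RNA of snap-frozen liver (Monarch Total RNA Miniprep, NEBNext Ultra RNA libraries, per the labels' protocols) was sequenced. Per the submitters' processing notes, reads were checked with FastQC 0.11.9 and MultiQC 1.10.1, aligned with STAR 2.7.8a to GRCm39 and counted per gene with featureCounts 2.0. The annotation release, strand setting and trimming are not given in the sources used here. The authors deposited raw counts per Ensembl gene with no normalization. Another deposited column gives gene coordinates and summed exon length. The table holds 55416 genes, of which 52083 (94.0%) received a symbol by Ensembl identifier from GENCODE M21; the rest hold 0.536% of counts. No pair of libraries was identical.

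Counts were tested with edgeR 4.0.16 in R 4.3.3 (filterByExpr with minimum count 10 and minimum total 15, TMM scaling, robust quasi-likelihood F-test, Benjamini-Hochberg adjustment over all 12840 tested genes, threshold 0.05). A standard error is the log2 fold change divided by the square root of F. CPM are TMM-normalised, and means are given with SD over 5 knockouts and 6 controls. The exact permutation test of Plvap used log2 CPM with a pseudocount of 0.5. Replicates are separate livers by their labels; p-values measure the spread between them, and PCR copies are not independent molecules. Lists of genes (49) were described by counts and medians without a test; 2 of 1326 members had no row. The fit was tested on simulated counts. Shared 50-base words between related genes come from GENCODE M21 transcripts, and promoters from RefSeq.

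Genes were named by a rule: Plvap, the 15 largest rises and falls past the threshold with at least 1 CPM, up to 5 called members per list (or the member with the lowest p), and the 5 genes with most counts. Genes outside the rule are named for their known role; this set was cut down after its values were seen, and genes dropped from it are not among the sensitivity and outlier results. Some called genes are not reported here. The comparison, lists and rule were chosen with earlier results of these data known. Alternatives were DESeq2 1.42.0, limma 3.58.1 (voom with sample weights), other scalings and filters, removal of the length trend, a replicate block and leaving out each library.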

Additional observations from a re-analysis of the deposited data

Results flagged for a closer look

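In 19 of the 290 gene and group pairs examined, 1 library stood apart from the others of its group by Dixon's criterion (the gap to the nearest value, as a share of the group's range, above its 95% critical value). Chance flags about 1 in 20 groups, and 19 of 290 is near that share.

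Knockout C was the library in 6 of them. It stood above the other knockouts in Clstn3 (14.25 CPM, the others 4.56 to 6.31), Acot2 (7.13 CPM, the others 2.66 to 3.76), Cpt2 (234 CPM, the others 142 to 167), Cyp2d9 (1686 CPM, the others 1326 to 1424) and Cyp4a10 (2109 CPM, the others 903 to 1100), and below them in H2-Q4 (38.5 CPM, the others 45.1 to 47.5). Knockout D stood below the other knockouts in Sik1 (7.88 CPM) and Apoe (14579 CPM), and above them in Lyve1 (22.3 CPM) and Cav1 (3.70 CPM, the others 1.64 to 2.08). Knockout B was the highest in Alb (71908 CPM, the others 52740 to 55376), and knockout A in Scd1 (7708 CPM, the others 1509 to 2512).

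Among controls, control B was highest in Hamp2 (5.33 CPM, the others 1.13 to 2.52) and Ghr (390 CPM), control A in Cyp3a44 (1.11 CPM, the others 0.201 to 0.475), control D in Olig1 (9.64 CPM, the others 5.28 to 6.25) and Decr1 (433.1 CPM, the others 374 to 385), and control F in Foxo1 (36.97 CPM, the others 21.2 to 25.1) and Cux2 (9.55 CPM, the others 0.492 to 3.59).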

How the results depend on the processing

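Plvap kept its direction and its call under all 19 alternatives. The count of changed genes moved more: 861 with no filter on low counts, 726 with DESeq2 and 490 with limma-voom and sample weights, and within 1.5 times of 289 with the other scalings, the 1 CPM filter or the length trend removed. As a percentage of the 12840 genes, those higher and lower were 3.41% and 3.29% with no filter, 2.97% and 2.69% with DESeq2 and 1.94% and 1.88% with limma-voom. Leaving out 1 library gave 90 to 550 genes changed, 0.343% to 2.02% of the 12840 higher and 0.319% to 2.27% lower. The replicate letters are shared between the groups. Deviations from the group mean in same-lettered livers had correlations of -0.028, 0.007, 0.343, 0.194 and -0.017 for A to E. Livers with unlike letters were not compared, so whether the letters pair livers was not tested. With the letter as a replicate block, 713 genes passed (3.04% higher, 2.52% lower), 264 of them among the 289. Of 86 genes called and named by the rule, 26 kept the call under all 19 alternatives and none reversed. Among genes not called, Fgf21 turned to -0.16 with limma-voom and ran from -0.11 (without knockout C) to 0.71 with 1 library left out, Scd1 from -0.31 (without knockout A) to 0.55, and G6pc, 0.04 with the block, from -0.23 to 0.02 (0.02 without knockout A, without knockout B or without control D, 0.01 without control F and 0.00 without control C). The cause of these moves was not tested.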

Other observations

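A pair of gene families was looked at after their values were seen, so their counts carry no test. Over all tested genes 1.12% were lower and 1.13% higher. Of 14 tested Psmd genes, which encode the regulatory cap of the proteasome, 4 fell, none rose and 13 lay below 0, with a median log2 fold change of -0.26; of all 38 tested proteasome subunits 4 fell, 1 rose and 34 lay below 0. Psmd14, the deubiquitinase of the cap, had 41.3, 38.2, 42.0, 39.5 and 43.5 CPM in knockouts and 48.9 to 60.2 CPM in controls (log2 fold change -0.42 ± 0.08, adjusted p = 0.0126), and kept its call whichever library was left out. Psmd11, Psmd6 and Psmd4 stood at 76.5%, 80.5% and 77.1% of control (adjusted p = 0.0228, 0.0360 and 0.0437), and Vcp, the ATPase that hands proteins to the proteasome, at 78.5% (adjusted p = 0.0466). These 4 calls were lost in some leave-out, with an adjusted p of 0.0627, 0.102 and 0.115 for the Psmd genes without knockout B and 0.111 for Vcp without knockout D. The gene that rose was Psmb10, a catalytic subunit of the immunoproteasome (154% of control, adjusted p = 0.0347; 0.0984 without knockout B).

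Of 15 tested MHC class I genes, also picked after their values were seen, 4 rose and none fell, beside 1.13% higher and 1.12% lower over all tested genes. H2-T23 had 359, 358, 352, 352 and 346 CPM in knockouts, against 212 CPM in the lowest, 240 in the median and 268 in the highest control (log2 fold change 0.54 ± 0.08, adjusted p = 0.00308). H2-T22, H2-Q7 and H2-Q4 stood at 164%, 151% and 151% of control (adjusted p = 0.00232, 0.00575 and 0.00705), with no overlap between the groups, and these 4 calls held whichever library was left out. Genes of this cluster are near copies of each other and differ between mouse strains, so counts may be split among them.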
